A study of Mus musculus with 40 samples.

Results

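The genes of the translation initiation factors were followed in single spermatocytes of the mouse testis. Members were the rows of the count table whose symbol begins with Eif and a digit, after leaving out Eif4ebp1, Eif4g3 and symbols of pseudogenes. Of 68 rows that match the name, 2 were left out by name and 10 as pseudogenes, which leaves 56 candidates. Of these, 48 had a summed count of 20 or more over all 40 cells and were measured. The whole table holds 55492 rows, of which 16174 reach that count. The 8 candidates below it were Eif2ak3, Eif2s3x, Eif4a3l1, Eif4a3l2, Eif4e1b, Eif4e3, Eif4ebp3 and Eif2c5, the last with 0 counts. Each library holds the mRNA of 1 cell, and the donors were C57BL/6J mice, 6 to 8 weeks of age. The Metaphase I group and the Pachytene group hold 20 cells each, both named as their labels name them. Spermatocytes were obtained by centrifugal elutriation, which separates cells by size, and 4 µM okadaic acid for 5 h, an inhibitor of the phosphatases PP1 and PP2A, is the treatment that the protocol text gives for reaching metaphase I. That text stands on all 40 libraries, so stage, drug and time in culture cannot be told apart, and the sources used here leave unsaid whether the Pachytene cells spent time in culture. The labels name no animal or culture, so each group was taken as 1 sample. No test between the groups was possible, no p-value is given, and intervals cover counting error only.

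Translation of most mRNAs begins when the small ribosomal subunit, carrying initiator tRNA and a set of initiation factors, is brought to the capped end of the mRNA and scans to a start codon. eIF2 with GTP carries the tRNA, eIF2B recharges eIF2, eIF3 is the scaffold on the small subunit, and the eIF4 proteins bind the cap and unwind the mRNA. In mice the gene of the gamma subunit of eIF2 has a copy on the X and another on the Y chromosome, and most genes of the sex chromosomes are silent in pachytene spermatocytes. In male germ cells many mRNAs are stored for days before they are translated, which is why the control of initiation is studied in this tissue.

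The cells carried late spermatocyte transcripts, and some libraries stood apart. Counts per cell ranged from 198117 to 1497037 in Metaphase I, with a median of 540662, and from 165048 to 2325564 in Pachytene, with a median of 730979. All 8 genes of the late spermatocyte list were measured, and their summed level was 11542 to 28955 CPM (counts per 1000000) in Metaphase I cells and 19134 to 32991 CPM in Pachytene cells. In 8 libraries, genes of the X chromosome took over 0.3% of the counts. These were Metaphase I replicates 3, 7, 17 and 19 and Pachytene replicates 2, 3, 7 and 19, at 0.470% to 1.48%, against at most 0.121% in the other 32. In 7 of the 8, the summed level of 10 elongating spermatid markers was 907 to 5359 CPM, against at most 1218 CPM in the other 32 libraries. The exception was Metaphase I replicate 19, with 32.7 CPM of spermatid markers but 14984 CPM of Sertoli cell markers. That cell also had the lowest late spermatocyte level of its group, 11542 CPM. It was highest in the group for Leydig (162 CPM) and spermatogonia markers (440 CPM), and for peritubular, endothelial and blood markers (62.5 CPM). Of these lists 1, 5 and 2 genes were measured. Sertoli markers reached at most 217 CPM in the other Metaphase I cells and 11.2 CPM in Pachytene cells, and the Sertoli markers Amh and Rhox5 were at 0 throughout. The counts of members, the medians of each role and the members that moved most are therefore also given without these 8 libraries. The part of spermatid or Sertoli cell RNA in the differences was not tested. No pair of libraries agreed within sampling noise.

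The initiation factors differed little between the groups. Together the 48 genes had 143954 counts in Metaphase I and 171938 in Pachytene, which is 10500 and 9734 CPM, a 1.08-fold higher level in Metaphase I (counting interval 1.07 to 1.09). Per cell the summed level ran from 5512 CPM in Metaphase I replicate 18 to 13683 CPM in replicate 13, with a median of 9608 CPM. In Pachytene it ran from 6929 CPM in replicate 3 to 13410 CPM in replicate 16, with a median of 9727 CPM. The mean over cells was 9903 ± 1983 CPM in Metaphase I and 9772 ± 1642 CPM in Pachytene (SD over 20 cells each), so the groups overlapped and their means differed by far less than the spread between cells. The 4 highest Metaphase I cells, replicates 1, 13, 14 and 15 at 12384 to 13683 CPM, had 964414 to 1497037 counts, but replicate 20 with 1391126 counts was at 9330 CPM.

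As background, 8.49% of all genes tested passed 2-fold upward in Metaphase I and 9.81% passed it downward, on a log2 ratio with 1 CPM added to each group. Of the 48 initiation factors, 2 were over 2-fold higher, Eif1ax and Eif2ak4, and 0 were over 2-fold lower, and both counts lie below that background. The background was not matched to the members in level, here or at 1.5-fold. With a minimum of 100 counts the 2-fold shares were 5.55% upward and 8.31% downward, and 1 and 0 of 46 members passed. At 1.5-fold the members higher were Eif1ax, Eif2ak4, Eif2a, Eif4a1, Eif4enif1 and Eif2b2, which is 6 of 48 against 17.3% of all genes. The 1 member over 1.5-fold lower was Eif4g1, against 18.8% of all genes. The median log2 ratio of the members was 0.10, with 30 above 0 and 18 below, against -0.0010 over all genes. Without the 8 libraries, 0 members were over 2-fold in either direction (background 5.65% higher and 3.69% lower). The members then over 1.5-fold higher were Eif2a, Eif2ak4 and Eif4g1 (background 14.4%), with 0 over 1.5-fold lower (background 11.2%), and the median was 0.077. Leaving out Metaphase I replicate 19 alone also gave 0 over 2-fold higher, while the share of all genes fell to 4.98%. Leaving out Metaphase I replicate 3, Pachytene replicate 4 or Pachytene replicate 16 gave 3, with Eif2a added (8.93%, 8.37% and 9.63% of all genes). Without Metaphase I replicate 3, 13 or 18, 1 member was over 2-fold lower, in turn Eif2s3y, Eif2b3 and Eif4g1 (14.7%, 8.45% and 10.1% of all genes).

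**Figure D1:**
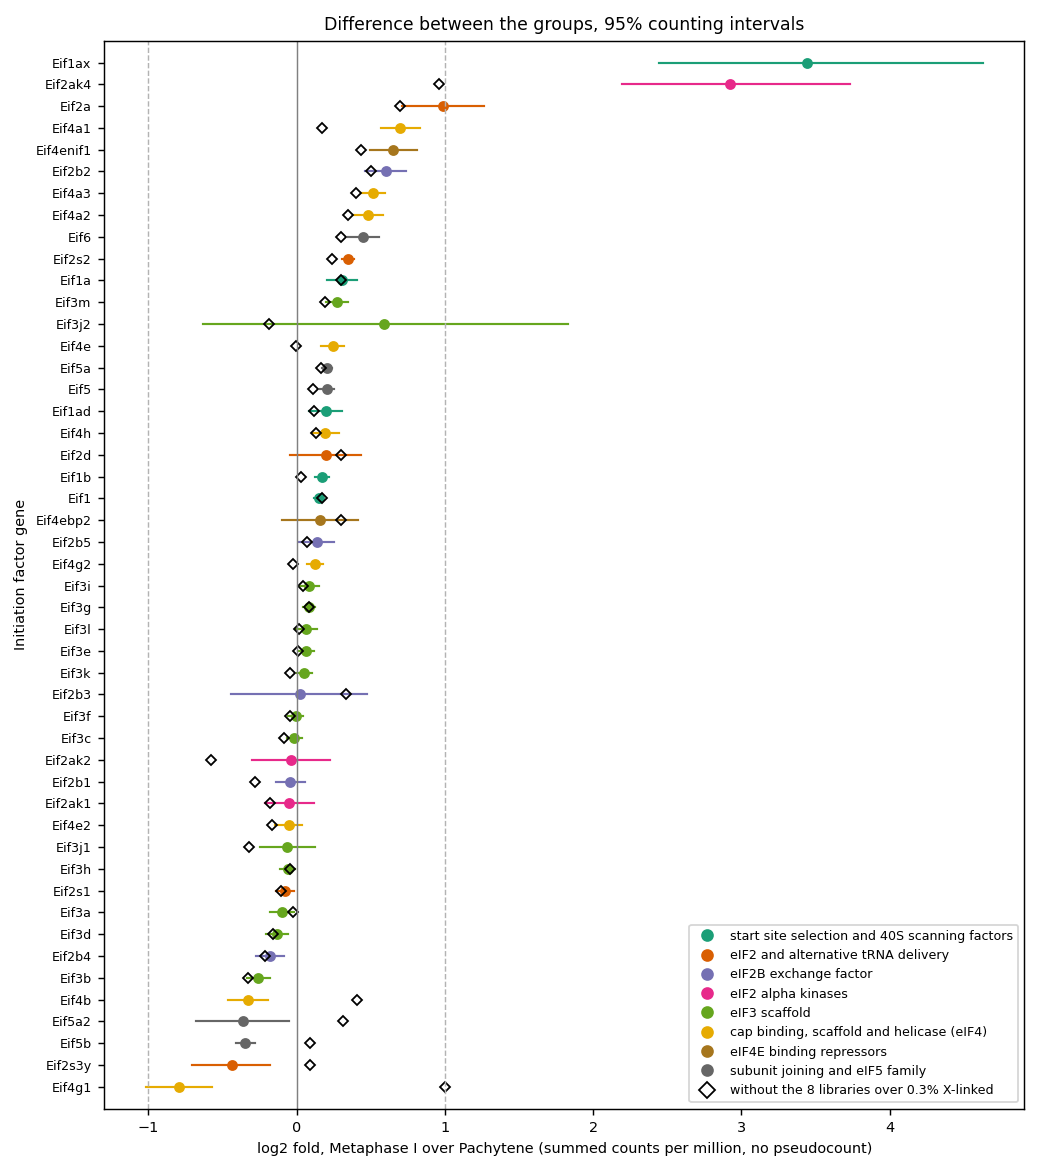
Log2 fold of each of the 48 genes, Metaphase I over Pachytene, from summed counts without a pseudocount. Dots are coloured by role with 95% counting intervals as lines, and open diamonds leave out the 8 libraries over 0.3% X-linked counts. Eif1ax has no diamond because its Metaphase I count is then 0. Most dots lie between the dashed 2-fold lines and near 0, with Eif1ax and Eif2ak4 at the high end and Eif4g1, whose diamond is on the other side of 0, at the low end.

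The factors of start codon selection had a median log2 ratio of 0.19 over 5 genes, or 0.12 without the 8 libraries. Of the 5, 4 had log2 ratios of 0.15 to 0.30 and Eif1ax had 2.12. Eif1 (chr11:100319885-100322096, GRCm38) encodes the factor that keeps the scanning subunit open until the start codon is met. It had the highest level per kb of exon of all members, 569 CPM per kb in Metaphase I and 513 CPM per kb in Pachytene. Its close copy Eif1b (chr9:120492232-120495330) came second, at 461 and 409 CPM per kb. The library kept 3' ends, so a level per length is a rough scale between genes. Both copies were expressed in every cell. A stretch of their coding sequences is shown for how alike the copies are, since 81.3% of 342 coding bases are identical. Where the reads fell within the genes is not known from the count table. In the 60 coding bases from 250 to 309, the window with the most differences, capitals mark the 17 positions where the copies differ (transcripts of GENCODE M21):
Eif1: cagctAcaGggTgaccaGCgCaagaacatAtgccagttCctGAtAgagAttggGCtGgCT
Eif1b: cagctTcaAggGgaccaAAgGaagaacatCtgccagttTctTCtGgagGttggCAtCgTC

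Eif1 ranged over cells from 518 to 2001 CPM in Metaphase I, with a median of 866 CPM, and from 440 to 2198 CPM in Pachytene, with a median of 978 CPM. Eif1b ranged from 75.7 to 692 CPM in Metaphase I (median 576 CPM) and from 36.2 to 744 CPM in Pachytene (median 535 CPM). The groups overlapped almost wholly for both genes, and their log2 ratios were 0.15 and 0.17, or 0.17 and 0.03 without the 8 libraries. The balance between the copies varied from cell to cell instead. Eif1 gave 51.6% to 91.7% of the counts of the pair in Metaphase I cells (median 64.5%) and 45.4% to 95.7% in Pachytene cells (median 69.4%), while its share of the summed counts was 69.7% in Metaphase I and 70.1% in Pachytene. Without the 8 libraries the share ran to 77.4% at most in Metaphase I (median 62.2%) and 78.6% in Pachytene (median 62.5%). The 8 libraries with the lowest Eif1b were the 8 over 0.3% X-linked counts, at 36.2 to 310 CPM against 333 to 744 CPM in the other 32. Eif1 was at 732 to 1162 CPM in those 8, inside the range of the others.

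Eif1ad, a protein with an eIF1A-like domain, had medians of 92.3 CPM in Metaphase I and 75.1 CPM in Pachytene (log2 ratio 0.19). It shares 850 bases with Banf1 on the opposite strand, and counts of such pairs cannot be told apart where the strand setting is unknown. Eif1a and Eif1ax encode eIF1A, which works with eIF1 during scanning. The autosomal copy Eif1a was present in all 40 cells, at 44.1 to 297 CPM in Metaphase I (median 102 CPM) and 28.3 to 193 CPM in Pachytene (median 84.4 CPM), with a log2 ratio of 0.30. The X-linked copy Eif1ax (chrX:159372178-159389928) was at 0 in 18 of 20 Metaphase I cells and 17 of 20 Pachytene cells. It had 76 counts in Metaphase I and 9 in Pachytene, or 5.54 CPM (exact Poisson interval 4.37 to 6.94) and 0.510 CPM (0.233 to 0.967), which is 10.9-fold (5.44 to 24.7). Of the 76 counts, 75 were in Metaphase I replicate 19, the cell with 14984 CPM of Sertoli markers, where Eif1ax stood at 107 CPM. Its log2 ratio was 2.12 with all cells. With replicate 19 left out it was -0.49, from 1 count in Metaphase I and 9 in Pachytene. Leaving out all 8 libraries gave -0.29, with 0 counts in Metaphase I and 3 in Pachytene, so that value depends on the pseudocount.

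The eIF2 genes had a median log2 ratio of 0.19 over 5 measured members, or 0.24 without the 8 libraries, and the gamma subunit differed from the others in how it was spread over cells. Eif2s1 and Eif2s2 encode the alpha and beta subunits of the factor that carries initiator tRNA, and the alpha subunit is the one phosphorylated under stress. Eif2s1 (chr12:78861819-78887010) had 74.4, 295 and 419 CPM as lowest, median and highest in Metaphase I cells and 133, 308 and 461 CPM in Pachytene cells, with a log2 ratio of -0.08. Eif2s2 (chr2:154871410-154892935) had 318, 633 and 1172 CPM in Metaphase I and 235, 596 and 1069 CPM in Pachytene, with a log2 ratio of 0.34, or 0.24 without the 8 libraries. The groups overlapped for both subunits. Of the 8 libraries with the lowest Eif2s2, 7 were among the 8 over 0.3% X-linked counts.

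The gamma subunit, which binds GTP and the tRNA, has the X copy Eif2s3x (chrX:94188707-94212862) and the Y copy Eif2s3y (chrY:1010543-1028847), which is needed for proliferation of mouse spermatogonia. Eif2s3x had 2 counts in Metaphase I and 4 in Pachytene, each in 1 cell, and was below the count minimum. The table also holds a pseudogene of it on chromosome 15, Eif2s3x-ps1 (chr15:75967227-75968335), which the rule leaves out but which bears on where gamma subunit reads were counted. The same 60 bases of the 3 copies are shown, in the window with the most differing positions, so they understate how alike the rows are. Whether reads fell there is not known from the count table. Capitals mark the 17 positions at which not all 3 are alike, the X copy and the pseudogene are read from the minus strand and the Y copy from the plus strand (GRCm38, GENCODE M21):
Eif2s3x, chrX:94197390-94197449: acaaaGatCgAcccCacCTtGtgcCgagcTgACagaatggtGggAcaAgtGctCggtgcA
Eif2s3y, chrY:1019994-1020053: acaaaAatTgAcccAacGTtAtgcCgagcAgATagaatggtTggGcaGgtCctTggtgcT
Eif2s3x-ps1, chr15:75967567-75967626: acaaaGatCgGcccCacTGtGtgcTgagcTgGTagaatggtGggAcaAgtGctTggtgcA

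Over the coding sequence, the X and Y copies are identical at 86.3% of 1419 bases. The pseudogene matches the X copy at 93.8% and the Y copy at 83.5% of 1104 aligned bases. Reads of the parts that are alike could be assigned to any copy or dropped, so the counts of the 3 are uncertain.

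Eif2s3y had 189 counts in Metaphase I, in 10 cells, and 330 in Pachytene, in 8 cells. It ranged from 0 to 99.1 CPM in Metaphase I (median 0.518 CPM, highest in replicate 3) and from 0 to 129 CPM in Pachytene (median 0, highest in replicate 2). Its log2 ratio was -0.41, a level of 13.8 CPM in Metaphase I (11.9 to 15.9) and 18.7 CPM in Pachytene (16.7 to 20.8), and 0.06 without the 8 libraries. High levels were confined to few cells of each group. With a line at 25 CPM, drawn after the values were seen, 9 libraries had 28.4 to 129 CPM of Eif2s3y and the other 31 at most 19.9 CPM. Of the 9, 8 were the libraries over 0.3% X-linked counts, and the remaining one was Metaphase I replicate 16 at 46.9 CPM, with 552 CPM of spermatid markers. Without Metaphase I replicate 3 the log2 ratio was -1.20, and without Pachytene replicate 7 it was 0.22, so its sign was set by single cells.

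Eif2s3x-ps1 showed the other pattern. It had 210 counts in 19 Metaphase I cells and 269 in 15 Pachytene cells, with medians of 11.1 and 13.0 CPM and highest cells of 38.7 and 60.6 CPM. In the 9 libraries with high Eif2s3y it was at most at 10.1 CPM, against a median of 15.4 CPM in the other 31. The 2 sets overlapped, since Metaphase I replicate 6 and Pachytene replicates 4 and 5, among the 31, were at 0. Both rows had counts in 14 cells, Eif2s3y alone in 4, the pseudogene alone in 20 and neither in 2. The remaining members of the group deliver tRNA by other routes. Eif2a (chr3:58525821-58557501), an alternative carrier of initiator tRNA, had 0, 11.6 and 73.8 CPM as lowest, median and highest in Metaphase I and 0, 6.53 and 46.1 CPM in Pachytene, so the groups overlapped. It had counts in 19 Metaphase I and 14 Pachytene cells, and at 340000 counts per cell in 15 of 17 and 13 of 19. The summed level was 20.5 CPM (18.2 to 23.0) in Metaphase I and 10.4 CPM (8.91 to 12.0) in Pachytene, 1.98-fold higher (1.64 to 2.40), with a log2 ratio of 0.92, or 0.65 without the 8 libraries. It shares 72 bases with Serp1 on the opposite strand, which had 8200 counts against 464 of Eif2a, so reads of Serp1 could be among its counts. Eif2d, which can also bring tRNA to the ribosome, had a log2 ratio of 0.19.

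**Figure D2:**
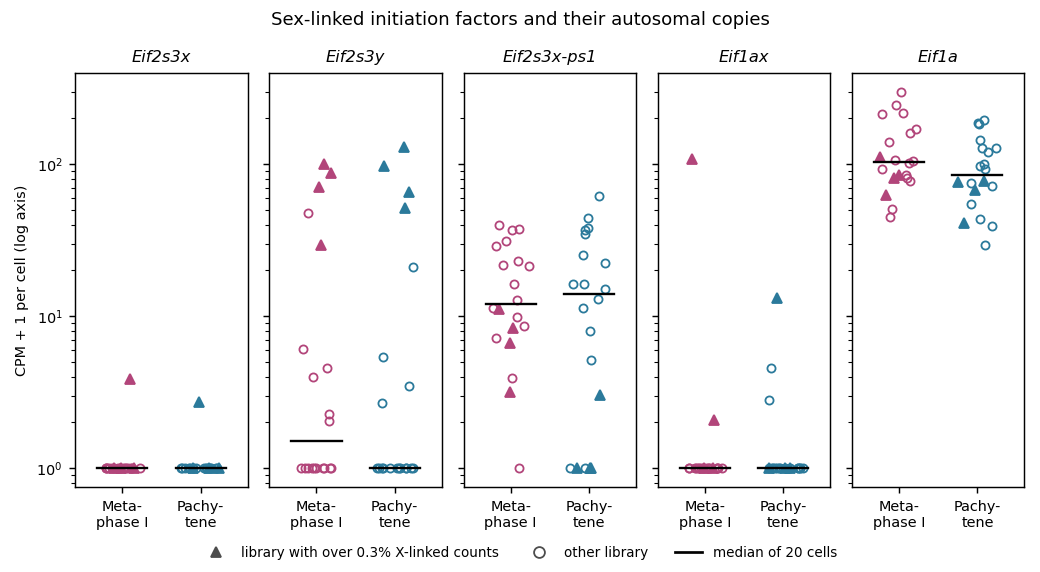
CPM plus 1 per cell, on a log axis, of the gamma subunit copies Eif2s3x and Eif2s3y, the pseudogene Eif2s3x-ps1, and the eIF1A copies Eif1ax and Eif1a, in 20 Metaphase I and 20 Pachytene cells. Triangles are the libraries over 0.3% X-linked counts and the bar is the median. The triangles lead Eif2s3y in both groups while Eif2s3x-ps1 is low in them, and Eif1ax is at 0 in most cells except for Metaphase I replicate 19.

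eIF2B exchanges GDP for GTP on eIF2, and its genes were near the Pachytene level, with a median log2 ratio of 0.02 over 5 genes, or 0.07 without the 8 libraries. The exception in size was Eif2b2 (chr12:85219481-85226628), the beta subunit, at 17.6, 54.1 and 118 CPM as lowest, median and highest in Metaphase I and 0, 43.8 and 88.8 CPM in Pachytene. It was 1.52-fold higher (1.38 to 1.67), with a log2 ratio of 0.59, or 0.49 without the 8 libraries. The cells of both groups overlapped widely. Eif2b5, the catalytic subunit, had a log2 ratio of 0.13, Eif2b1 -0.04, Eif2b3 0.02 and Eif2b4 -0.18. Eif2b1 was at -0.28 and Eif2b3 at 0.28 once the 8 libraries were left out. Eif2b4 shares 1588 bases with Snx17 on the opposite strand. Eif2b3 was sparse, with 74 counts in 6 Metaphase I cells and 94 in 8 Pachytene cells, and the others had counts in at least 18 cells of each group. Of those 74 counts of Eif2b3, 66.2% came from replicate 13 alone. Dropping that cell moved the log2 ratio of Eif2b3 from 0.02 to -1.05. Its sign also turned in 14 of the 40 omissions of 1 cell, so the value near 0 depended on which cells were kept.

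The kinases that phosphorylate eIF2 alpha and so slow initiation were low in both groups, at no more than 7.07 CPM per kb of exon. Eif2ak1, the kinase that senses heme, had medians of 32.7 CPM in Metaphase I and 41.4 CPM in Pachytene, with a log2 ratio of -0.05, or -0.18 without the 8 libraries. On the opposite strand it shares 172 bases with Ankrd61 and 974 bases with Aimp2. These had 2098 and 33 counts against 1239 of Eif2ak1. Eif2ak2, which senses double-stranded RNA, had medians of 9.39 and 13.0 CPM and a log2 ratio of -0.04, or -0.54 without the 8 libraries. Eif2ak3, the kinase of the endoplasmic reticulum, had 5 counts in Metaphase I and 0 in Pachytene and was below the minimum. Eif2ak4 (chr2:118388618-118475234), which senses uncharged tRNA, had 106 counts in 10 Metaphase I cells and 18 in 7 Pachytene cells. Its level was 7.73 CPM (6.33 to 9.35) in Metaphase I and 1.02 CPM (0.604 to 1.61) in Pachytene, 7.59-fold higher (4.58 to 13.3), with a log2 ratio of 2.11. Of the 106 counts, 70.8% were in Metaphase I replicate 19, at 107 CPM, the cell with the high Sertoli markers, while the median cell was at 0.442 CPM in Metaphase I and 0 in Pachytene. Without that cell 31 counts remained in Metaphase I and the log2 ratio was 0.74. It was 0.62 without the 8 libraries.

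The 14 measured genes of eIF3 were even between the groups. Their log2 ratios ran from -0.26 to 0.27 with a median of 0.02, 7 above 0 and 7 below, and 0 were over 1.5-fold in either direction. Without the 8 libraries the median was -0.04 and the range -0.33 to 0.19. Summed, they stood at 3895 CPM in Metaphase I and 3858 CPM in Pachytene, 1.01-fold (0.998 to 1.02). Per cell the sum had a low of 1592 CPM in Metaphase I replicate 18, a median of 3676 CPM and a high of 4980 CPM, and in Pachytene 2835, 3832 and 4852 CPM. Metaphase I replicate 18 thus lay below every Pachytene cell, and it also had the lowest summed level of all initiation factors.

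Within eIF3, Eif3g (chr9:20894349-20898623) encodes a subunit with an RNA recognition motif. It had 226, 473 and 971 CPM as lowest, median and highest in Metaphase I and 340, 554 and 873 CPM in Pachytene (log2 ratio 0.08). Eif3f (chr7:108934417-108942951) had 77.3, 447 and 622 CPM in Metaphase I and 48.5, 452 and 552 CPM in Pachytene (-0.01). Eif3h (chr15:51786558-51865523) had 68.4, 398 and 605 CPM in Metaphase I and 334, 435 and 679 CPM in Pachytene (-0.06). The ranges of the groups overlapped for all 3. Metaphase I replicates 16, 17 and 18 lay under every Pachytene cell for Eif3g, and replicates 16, 18 and 20 for Eif3h. Eif3a, Eif3b and Eif3c had log2 ratios of -0.10, -0.26 and -0.01. At the lower end of the level scale were the copies of the loosely bound j subunit. Eif3j1 had medians of 26.1 CPM in Metaphase I and 30.3 CPM in Pachytene (log2 ratio -0.06, or -0.31 without the 8 libraries), and Eif3j2 had 14 counts in 9 Metaphase I cells and 12 in 7 Pachytene cells. Eif3m, at a log2 ratio of 0.27, shares 292 bases with Ccdc73 on the opposite strand, and Eif3d, at -0.13, shares 3155 bases with Gm17638, which had 8 counts.

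**Figure D3:**
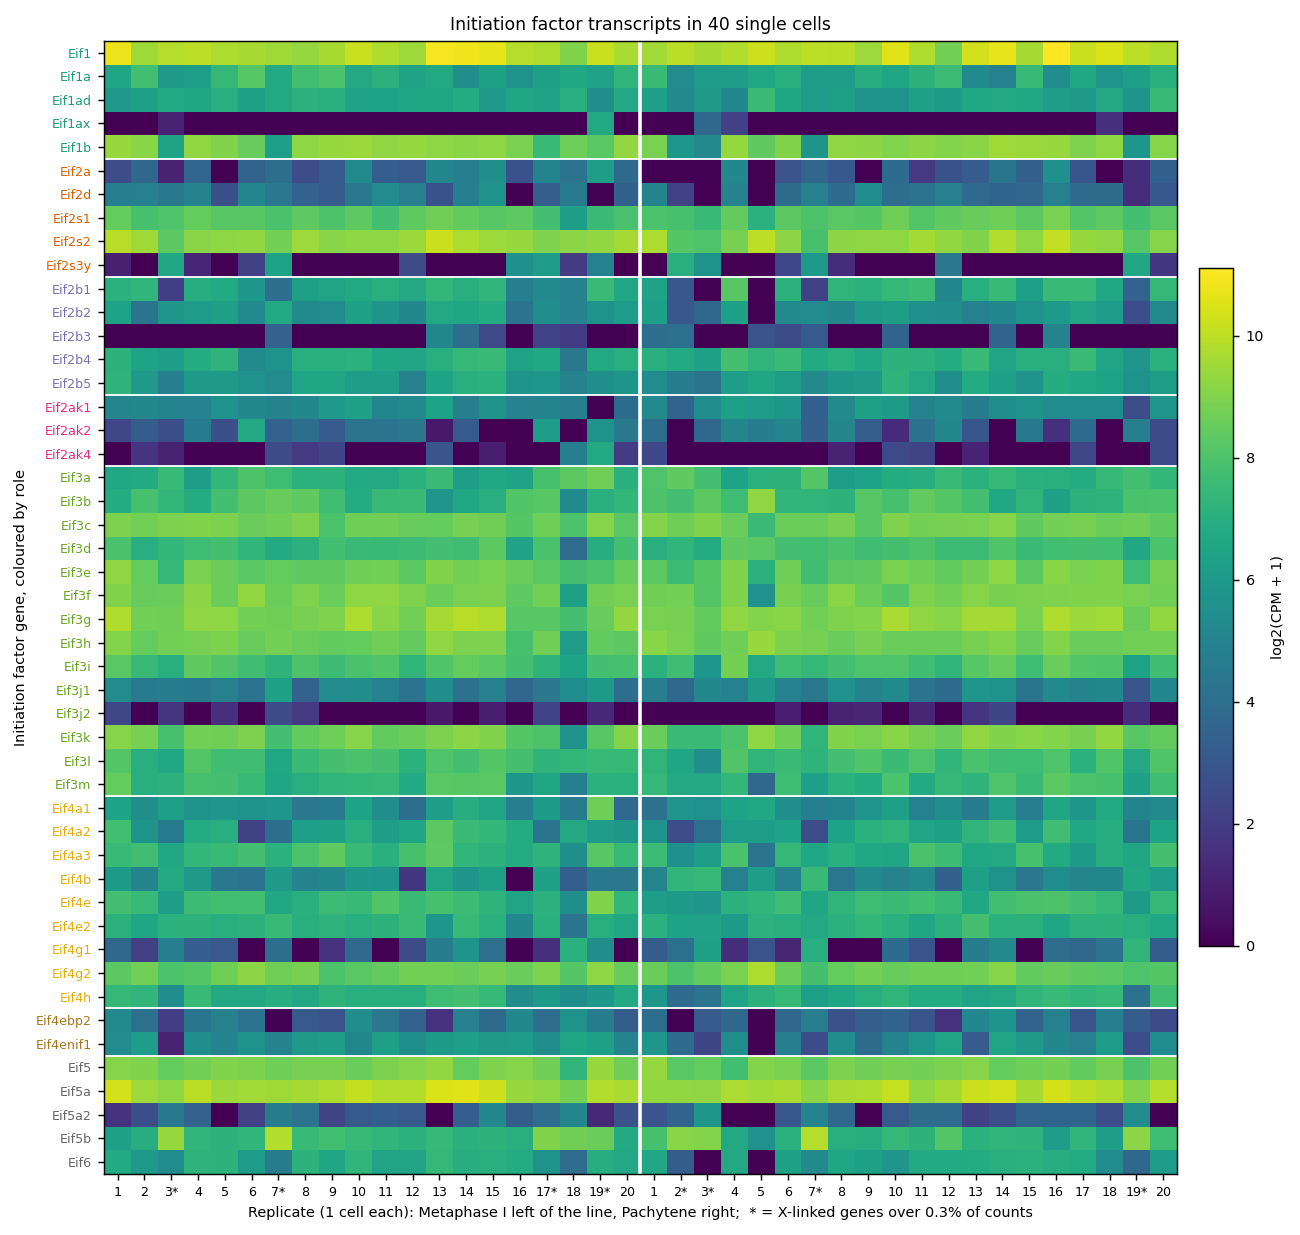
Log2(CPM + 1) of the 48 genes, ordered and coloured by role, in the 40 cells, Metaphase I left of the white line and Pachytene right of it. Asterisks mark the libraries over 0.3% X-linked counts. The eIF3 block looks alike on both sides of the line, and Eif1b and Eif4a2 are dark, meaning low, in most of the marked columns.

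The eIF4 genes, which act at the cap, had a median log2 ratio of 0.19 over 9 measured genes, or 0.17 without the 8 libraries, and their paralogs are taken in turn. eIF4A is the helicase that unwinds mRNA ahead of the scanning subunit. Eif4a1 (chr11:69666936-69672423) had 12.9, 52.3 and 399 CPM as lowest, median and highest in Metaphase I and 17.4, 46.5 and 108 CPM in Pachytene. Its summed level was 1.62 times as high in Metaphase I (1.48 to 1.78), and replicate 19 gave 26.7% of the Metaphase I counts. The log2 ratio was 0.69, against 0.32 with that cell left out and 0.17 with all 8 libraries left out. Eif4a2 (chr16:23107444-23114136) had 3.53, 87.2 and 313 CPM in Metaphase I and 5.16, 85.6 and 208 CPM in Pachytene, with a log2 ratio of 0.48, or 0.35 without the 8. Replicate 13 of Metaphase I, a cell outside the 8, supplied 27.9% of the Eif4a2 counts in that group. Dropping this cell alone lowered the log2 ratio of Eif4a2 to 0.18. Of the 8 lowest libraries of Eif4a2, 7 were over 0.3% X-linked counts. It shares 923 bases with Rfc4 on the opposite strand. Eif4a1 gave 14.0% to 93.3% of the counts of the pair in Metaphase I cells (median 33.0%) and 14.1% to 91.2% in Pachytene cells (median 34.0%). With the 8 libraries left out the highest share was 93.3% in Metaphase I (median 29.5%) and 57.1% in Pachytene (median 30.9%). The 93.3% came from Metaphase I replicate 6 alone, which had 14 counts of Eif4a1 and 1 of Eif4a2. The ranges of the groups overlapped in both cases.

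Eif4a3 (chr11:119288363-119300089), a helicase of the exon junction complex that marks spliced mRNA, had the widest gap between the medians among the abundant eIF4A genes. It had 44.6, 177 and 335 CPM as lowest, median and highest in Metaphase I and 18.2, 106 and 238 CPM in Pachytene. The level was 1.43-fold higher (1.35 to 1.51) and the log2 ratio 0.51, or 0.40 without the 8 libraries, with overlapping cells. Its copies Eif4a3l1 and Eif4a3l2 had 2 and 3 counts in Metaphase I and 0 and 1 in Pachytene.

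eIF4E binds the cap. Eif4e (chr3:138526179-138559696) had 44.6, 184 and 513 CPM as lowest, median and highest in Metaphase I, highest in replicate 19, and 54.4, 169 and 252 CPM in Pachytene. Its log2 ratio was 0.24, or -0.00 without the 8 libraries. Eif4e2, which encodes the related cap-binding protein 4EHP that represses translation, had medians of 134 CPM in both groups and a log2 ratio of -0.05, or -0.16 without the 8 libraries. Eif4e1b, known as an oocyte form, was at 0 in every cell, and Eif4e3 had 0 counts in Metaphase I and 2 in Pachytene.

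eIF4G joins the cap-binding protein to eIF3. Eif4g2 (chr7:111067750-111083030), whose product DAP5 lacks the site for eIF4E, was at 244, 404 and 598 CPM as lowest, median and highest in Metaphase I and 225, 362 and 860 CPM in Pachytene (log2 ratio 0.12, or -0.02 without the 8 libraries). Eif4g1 (chr16:20668313-20692884), the classical scaffold, was far lower and uneven, at 0, 8.15 and 134 CPM in Metaphase I and 0, 10.6 and 154 CPM in Pachytene. Per kb of exon, Eif4g2 stood at 38.3 CPM in Metaphase I and 35.1 CPM in Pachytene, and Eif4g1 at 2.46 and 4.26 CPM. Summed, Eif4g1 had 246 counts in Metaphase I and 549 in Pachytene, 17.9 CPM (15.8 to 20.3) and 31.1 CPM (28.5 to 33.8). It was thus 1.73-fold lower in Metaphase I (1.49 to 2.02), with a log2 ratio of -0.76. Pachytene replicate 7, with 5008 CPM of spermatid markers, held 54.1% of its Pachytene counts. The log2 ratio was 0.12 with that cell left out and 0.92 with all 8 libraries left out, while leaving out Metaphase I replicate 18 took it past 2-fold lower. Its direction therefore depended on which cells were kept.

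Eif4b and Eif4h encode helpers of the helicase. Eif4b had medians of 43.6 CPM in Metaphase I and 37.5 CPM in Pachytene, and its log2 ratio was -0.32 with all cells and 0.40 without the 8 libraries, which held 6 of its 8 highest values. Eif4h had a log2 ratio of 0.19. Of the proteins that hold eIF4E inactive, Eif4ebp2 had medians of 17.0 CPM in Metaphase I and 9.85 CPM in Pachytene (log2 ratio 0.15), and Eif4ebp3 was at 0 in every cell. Eif4enif1 (chr11:3202392-3244588), known as 4E-T, a binding protein of eIF4E found with stored and repressed mRNAs, had 1.08, 55.3 and 92.2 CPM as lowest, median and highest in Metaphase I and 0, 32.5 and 93.1 CPM in Pachytene. Its level was 1.57-fold higher (1.41 to 1.76), with a log2 ratio of 0.64, or 0.43 without the 8 libraries, and the cells of the groups overlapped.

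The factors that join the subunits were a mix of even and uneven genes, with a median log2 ratio of 0.21 over 5 genes, or 0.16 without the 8 libraries. Eif5 (chr12:111538016-111546752), which makes eIF2 cleave its GTP at the start codon, had 158, 465 and 662 CPM as lowest, median and highest in Metaphase I and 214, 437 and 647 CPM in Pachytene (log2 ratio 0.21). Eif5a (chr11:69916714-69921958), a factor with the modified residue hypusine that also acts in elongation, had 440, 857 and 1489 CPM in Metaphase I and 526, 820 and 1346 CPM in Pachytene (0.21). At 412 and 357 CPM per kb it followed Eif1 and Eif1b in level per length. Its copy Eif5a2 gave 1.03% of the counts of the pair in Metaphase I and 1.52% in Pachytene, and 0.891% and 0.804% without the 8 libraries, where the order of the groups was turned. Eif6, which keeps the large subunit from joining too early, had medians of 108 CPM in Metaphase I and 87.1 CPM in Pachytene and a log2 ratio of 0.45, or 0.30 without the 8 libraries.

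Eif5b (chr1:37998010-38055579), the GTPase of subunit joining, had the highest coefficient of variation among the abundant members with all cells kept. It had 81.9, 158 and 893 CPM as lowest, median and highest in Metaphase I and 48.5, 151 and 920 CPM in Pachytene, the highest cell being replicate 7 in both groups. The medians were close while the log2 ratio of the sums was -0.35, or 0.26 without Pachytene replicate 7 and 0.09 without the 8 libraries. Of its 8 highest libraries, 7 were over 0.3% X-linked counts. It shares 3300 bases with Rev1 on the opposite strand, which had 375 counts against 8025 of Eif5b.

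**Figure D4:**
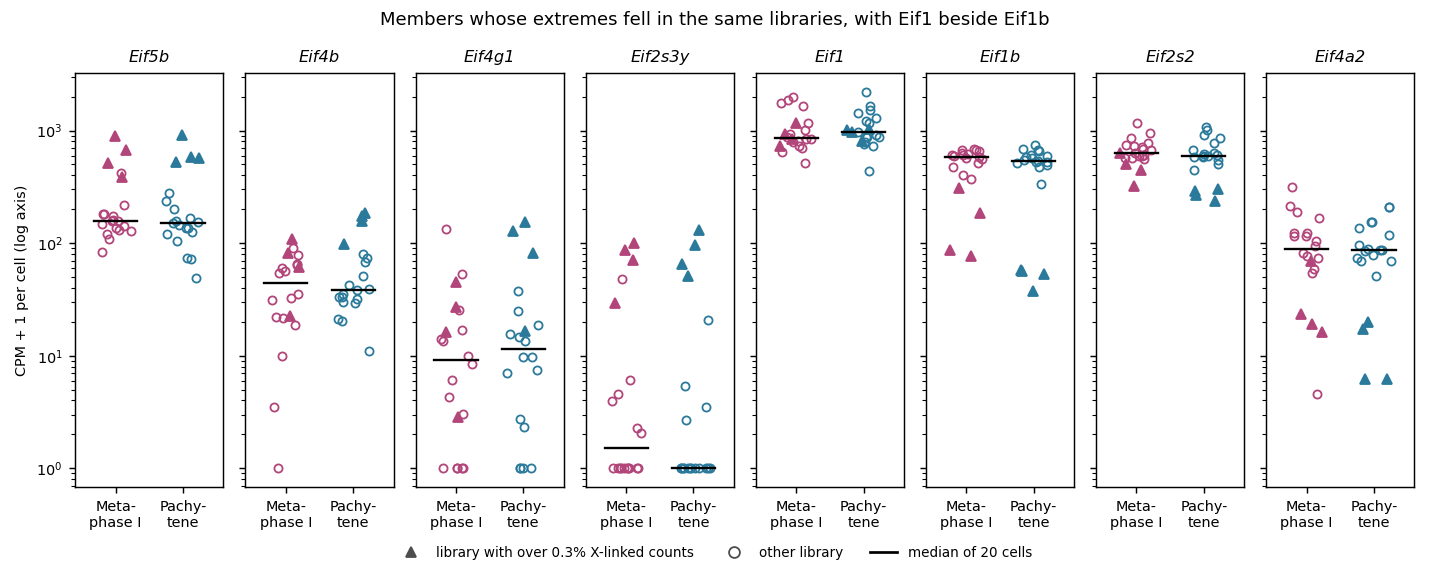
CPM plus 1 per cell, on a log axis, of 8 genes in 20 Metaphase I and 20 Pachytene cells. Triangles are the libraries over 0.3% X-linked counts and bars are medians. The triangles sit at or near the top for Eif5b and Eif2s3y and at the bottom for Eif1b, and most of them are low for Eif2s2 and Eif4a2, where Metaphase I replicate 19 lies among the other cells, while for Eif1 they lie inside the range of the other cells.

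Each gene was scored by how many of its 8 highest or lowest libraries were those over 0.3% X-linked counts. Of the 8 genes drawn, Eif5b, Eif2s3y, Eif1b, Eif2s2 and Eif4a2 reached 7 or 8. Eif4b with 6 and Eif4g1 with 5 of their 8 highest were also drawn, and Eif1 beside its copy Eif1b. Other members with 5 or 6 were not drawn. Over all genes, 7.15% had 7 or 8 of their 8 highest values there, against 2 of 48 initiation factors, Eif5b and Eif2s3y. For the 8 lowest values the background was 1.76%, against 3 of 48, Eif1b, Eif2s2 and Eif4a2. The first share is below its background, which includes the X-linked genes by which the 8 libraries were chosen. The second share is above its background, on 3 genes, but this is not a like comparison. Ties at 0 were not counted as lowest values, so a gene at 0 in more than 8 cells could not score. Of the 48 members, 31 had counts in all 40 cells.

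The median spread of abundant initiation factors between cells was near that of all genes in a broad band of level. Among genes with a mean of 100 to 1300 CPM over the cells of a group, the members' median coefficient of variation was 37.1% in Metaphase I (27 members, against 39.5% over all genes) and 35.1% in Pachytene (26 members, against 39.1%). The lowest were Eif3c at 20.4% in Metaphase I and Eif3h at 18.0% in Pachytene, and the highest was Eif5b, at 84.5% in Metaphase I and 92.3% in Pachytene. In each group 16 of the members lay below the median of all genes. Without the 8 libraries, a comparison added after the data were seen, the members' median was 36.4% in Metaphase I (29 members, against 35.3% over all genes) and 27.3% in Pachytene (28 members, against 32.6%). Eif5b was then at 45.4% in Metaphase I and 41.3% in Pachytene. The lowest was then Eif1b, at 16.2% in Metaphase I and 17.2% in Pachytene.

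Genes that work beside the initiation factors were counted from a separate list of 31 translation genes. Of these, 29 were measured. Ddx3x, Ddx3y, Ppp1r15a and Eef1e1, 4 of the 29, were past 2-fold on the high side in Metaphase I, and 1 was past it on the low side (Rptor, a partner of the mTOR kinase), against 8.49% and 9.81% of all genes. Without the 8 libraries 1 was past 2-fold on the high side and 0 on the low side, against 5.65% and 3.69% of all genes. The median log2 ratio was 0.13, or 0.07 without the 8 libraries. Metaphase I replicate 19 held 96.2% of the Metaphase I counts of the helicase gene Ddx3x, 100% of those of its Y copy Ddx3y and 96.6% of those of Ppp1r15a, which directs a phosphatase to eIF2 alpha. Eef1e1, a scaffold protein of the tRNA synthetase complex, had a log2 ratio of 2.10 with all cells and 2.04 without the 8 libraries. Metaphase I replicate 13, which is not among the 8, held 43.7% of its Metaphase I counts. Rptor was at -1.24 with all cells and -0.35 without them. Pabpc1, the poly(A)-binding protein that contacts eIF4G, was even between the groups at 4809 CPM in Metaphase I and 4676 CPM in Pachytene.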

How the data were processed

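The authors deposited raw gene counts, as whole numbers, from single-cell libraries of a modified STRT-seq method that kept 3' ends, per the labels' protocols. UMI-tools, STAR, featureCounts and GRCm38 are named without versions, per the submitters' processing notes. Strand setting, annotation release and removal of PCR copies: not given in the sources used here. Intervals are too narrow if counts are reads.

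For CPM, a gene's counts in all 20 cells of the group were added and scaled to the group's total. The totals were 13709617 in Metaphase I and 17663240 in Pachytene. Log2 ratios put Metaphase I over Pachytene after 1 CPM was added to each as a pseudocount, for genes with 20 or more counts. Folds have exact conditional binomial intervals, levels exact Poisson intervals, at 95%. A floor of 3 counts is 0.219 CPM in Metaphase I and 0.170 CPM in Pachytene. No cell was left out and doublets were not called. The members and lists were chosen with earlier results of these data known, so no count over them is independent support. Named with values over cells were the 8 members of highest summed level, members with 100 or more counts and over 1.5-fold, sex-linked members with autosomal copies, and the paralog sets. All 48 measured members have the coordinates of GENCODE M21, and 13 overlap a gene on the opposite strand. Coordinates are 1-based on GRCm38. Alternatives were other size factors (TMM from edgeR 4.0.16 in R 4.3.3), pseudocounts, count minimums, thinning and left-out cells. Python 3.11.15, numpy 2.4.6 and pandas 2.3.3 were used. The calculations were tested on simulated data.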

Additional observations from a re-analysis of the deposited data

Results flagged for a closer look

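Of the 10 pseudogene rows left out of the members, 2 reached the minimum of 20 summed counts, above what a count of 0 allows. Eif2s3x-ps1 had 479 counts over all cells, 210 in Metaphase I and 269 in Pachytene. Eif3s6-ps1 had 92 counts, 22 in Metaphase I cells and 70 in Pachytene cells, with its highest cell, Pachytene replicate 7, at 24.1 CPM.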

How the results depend on the processing

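No paired analysis was possible because the results come from no test and the replicate numbers name cells, not shared animals. Over 11 alternatives and 40 omissions of 1 cell, 20 of 48 members kept the sign of their log2 ratio in all 51, 15 above 0 and 5 below. Some alternatives could not turn a sign: other count minimums left each member's ratio as it was, and the larger pseudocount only shrinks it. Members over 2-fold higher numbered 2 with all cells, 0 with a pseudocount of 10 CPM (0.884% of all genes), 0 by medians over cells (3.52%), 0 without the 8 libraries over 0.3% X-linked counts (5.65%) and 1 with a minimum of 100 counts (5.55%). The members' drop goes with a lower share of all genes in each case. Without single cells they numbered 0 to 3, and members over 2-fold lower 0 to 1. After thinning to 340000 counts, 1 member was over 2-fold lower, Eif4g1 (10.4% of all genes). At 1.5-fold, single omissions gave 4 to 7 members higher and 0 to 2 lower. Eif1ax ranged from -0.49 to 2.48 over single omissions, the low end being without Metaphase I replicate 19, and was at -0.29 with the 8 libraries left out. The summed log2 ratio of 0.11 was 0.019 with equal weight per cell, 0.064 with TMM, 0.093 with median-of-ratios factors, 0.13 on totals without mitochondrial and ribosomal protein genes, 0.073 thinned, -0.00499 by medians over cells, 0.014 without the deepest cell of each group, 0.067 without the 8 libraries and 0.0547 to 0.15 without single cells. The median log2 ratio of members, 0.10, was 0.046 to 0.17 without single cells. Beyond the construction of each alternative, the cause was not tested. The 2 members with under 100 counts, Eif1ax and Eif3j2, are limited by depth.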
